A study of Mus musculus with 4 samples.

Results

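Accessible chromatin was examined at 8 genes of the interferon regulatory factor (IRF) family, Irf1, Irf2, Irf3, Irf4, Irf5, Irf7, Irf8 and Irf9, in mouse hematopoietic stem cells (HSCs) with and without Med23, a subunit of the mediator complex. Chromatin accessibility had been profiled by ATAC-seq, where a transposase cuts and tags DNA that is not packed away, and peaks had been called by the authors. Peaks of the WT and KO lists that overlapped each other were merged into consensus regions, and a region belonged to a gene when it overlapped the gene body or the 20 kb on either side. For Irf8, the member of the family most tied to monocytes and dendritic cells, the downstream side was 80 kb. By this rule 36 of 45475 consensus regions were chosen, built from 26 WT peaks and 35 KO peaks, with 4 regions at Irf8 and 32 at the other 7 genes.

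The labels give 4 samples of adult bone marrow HSCs on the C57BL/6 strain, sorted as LSK CD150+CD34-CD48- cells with 5000 cells per reaction, whereas the study's ATAC-seq methods name CD150+CD48- LSK cells and do not mention CD34. The genotypes are written there as WT(Med23floxp/flowp) for 2 samples and KO(Mx1-cre;Med23floxp/flowp) for the other 2, so the floxed allele was shared and the Mx1-cre transgene marked the KO. The study describes its WT mice as littermates without the transgene. Both samples of a genotype point to one and the same list of peaks, so there was 1 list per genotype, no spread between replicates could be measured and no value below is tested. The Mx1 promoter responds to interferon, and the study induced deletion with poly(I:C), which itself induces interferon. When the ATAC-seq mice received it, and whether the WT mice did, is not given in the sources used here, so any response of the IRF genes to that treatment or to the transgene cannot be told apart from the loss of Med23.

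IRF proteins are transcription factors that bind GAAA-rich sites called interferon-stimulated response elements (ISRE). Some are switched on by phosphorylation after pattern recognition receptors sense microbes or nucleic acids, as are Irf3, Irf5 and Irf7. Irf9 joins Stat2 to carry the signal of type I interferon, while Irf1 and Irf8 are classical genes induced by interferon gamma through a site known as GAS. Irf4 and Irf8 bind DNA weakly on their own and act with partners such as Spi1 at composite sites of an ETS site and an IRF site (EICE), and Irf8 is needed for monocyte and dendritic cell development.

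The lists held 37887 WT and 37615 KO peaks on the autosomes and chromosome X. Read totals are unknown. The pileup at a summit, meaning the number of reads or fragments stacked there, was recovered from the authors' fold enrichment and p-value, and its median was 18 in WT against 19 in KO. Promoter peaks were at 4 of 6 stem cell markers in both lists (Hlf, Mecom, Kit and Meis1) and at Procr and Slamf1 in neither list. Of 9 markers of monocytes, dendritic cells and granulocytes, 8 had no promoter peak in either list and S100a8 had 1 in WT only, with a pileup of 11. None of the 9, among them Csf1r, Siglech, Xcr1 and Clec9a, had a promoter peak in the KO list. The 3 T cell markers had none in either list. Of 3 B cell markers, Ebf1 and Pax5 had promoter peaks in both lists and Cd79a in neither, and the 2 erythroid markers, Klf1 and Hbb-bt, had none.

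The sequences at Irf8 come first, because this was the only one of the 8 genes whose regions were all in the KO list and none in the WT list. They are from the reference GRCm38.p6, plus strand, 5′ to 3′. The first is the RefSeq promoter stretch, 250 bases before and 50 after the start site (chr8:120736108-120736407), in which capitals mark 2 GAS matches (TTCNNNGAA) at positions −171 and −153 from the start. The other 3 are 200-base windows around the KO summits inside the gene (chr8:120743988-120744187 and chr8:120752196-120752395) and downstream of it (chr8:120796301-120796500). Capitals mark a GATA match (AGATAA, here on the minus strand) and an ISRE match (GAAANNGAA) in the window at 15938 bp, and a RUNX match (TGTGGT) in the window at 60043 bp. The window at 7730 bp held none of the 10 motifs searched.
Irf8 promoter stretch: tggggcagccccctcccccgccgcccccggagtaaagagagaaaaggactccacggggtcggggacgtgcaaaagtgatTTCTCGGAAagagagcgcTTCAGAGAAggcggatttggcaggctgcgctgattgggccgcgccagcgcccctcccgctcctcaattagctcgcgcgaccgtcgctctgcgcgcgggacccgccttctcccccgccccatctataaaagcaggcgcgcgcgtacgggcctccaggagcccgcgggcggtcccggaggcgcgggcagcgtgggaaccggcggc
Irf8 intron, 7730 bp: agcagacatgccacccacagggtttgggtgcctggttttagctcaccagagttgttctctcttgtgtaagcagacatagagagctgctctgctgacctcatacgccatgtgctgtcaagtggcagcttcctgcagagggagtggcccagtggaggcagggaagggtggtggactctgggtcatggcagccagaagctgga
Irf8 shorter transcript start, 15938 bp: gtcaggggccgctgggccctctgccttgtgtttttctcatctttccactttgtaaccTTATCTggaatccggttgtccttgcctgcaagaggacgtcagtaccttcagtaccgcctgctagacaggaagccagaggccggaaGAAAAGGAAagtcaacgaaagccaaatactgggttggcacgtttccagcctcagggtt
Irf8 downstream, 60043 bp: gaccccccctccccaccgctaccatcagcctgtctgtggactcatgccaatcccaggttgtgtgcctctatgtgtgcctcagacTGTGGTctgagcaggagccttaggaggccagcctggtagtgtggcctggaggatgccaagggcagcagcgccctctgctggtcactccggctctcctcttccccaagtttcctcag

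Other members are shown as examples of promoters or a KO-only region with motifs read by the family or the GAS motif. EICE matches in the KO-only Irf2 region at 38574 bp and the Irf5 start region at 2595 bp are not printed. In the RefSeq promoter stretches of Irf1 (chr11:53769764-53770063) and Irf2 (chr8:46739495-46739794) capitals mark GAS matches at −90 and −224. In that of Irf2 they also mark an EICE match (GGAANNGAA) at −247 that runs into an ISRE match at −241. In the summit window of the Irf9 promoter region (chr14:55604078-55604277) they mark a GAS match. In the window of a KO-only region upstream of Irf4 (chr13:30738422-30738621) they mark 2 overlapping ISRE matches and 1 EICE match, all on the minus strand. All 4 are printed on the plus strand.
Irf1 promoter stretch: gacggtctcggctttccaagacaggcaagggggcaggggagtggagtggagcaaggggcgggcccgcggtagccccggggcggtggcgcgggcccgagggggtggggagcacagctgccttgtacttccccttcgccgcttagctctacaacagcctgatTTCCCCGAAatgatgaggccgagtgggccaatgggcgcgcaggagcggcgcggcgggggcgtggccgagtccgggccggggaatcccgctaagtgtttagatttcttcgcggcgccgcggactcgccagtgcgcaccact
Irf2 promoter stretch: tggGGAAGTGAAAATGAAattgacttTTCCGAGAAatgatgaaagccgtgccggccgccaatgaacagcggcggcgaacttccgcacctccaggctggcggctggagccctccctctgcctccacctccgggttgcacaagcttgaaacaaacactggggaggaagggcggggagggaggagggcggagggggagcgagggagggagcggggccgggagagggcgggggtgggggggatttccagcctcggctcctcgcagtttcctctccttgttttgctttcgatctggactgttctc
Irf9 promoter region, 607 bp: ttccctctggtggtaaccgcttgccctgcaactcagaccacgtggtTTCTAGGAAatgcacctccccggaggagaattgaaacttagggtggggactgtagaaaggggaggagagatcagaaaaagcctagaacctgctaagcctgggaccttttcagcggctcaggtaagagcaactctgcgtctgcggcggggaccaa
Irf4 upstream region, −10704 bp: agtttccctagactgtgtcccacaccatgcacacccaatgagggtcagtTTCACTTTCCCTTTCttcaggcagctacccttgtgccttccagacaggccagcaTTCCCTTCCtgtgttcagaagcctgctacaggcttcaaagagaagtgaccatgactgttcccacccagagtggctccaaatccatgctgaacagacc

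Irf8 differed most plainly between the lists. Its window held 0 WT peaks and 4 KO peaks, covering 2228 bp, while each of the other 7 genes had at least 2 WT peaks and a promoter region in the WT list. When peaks under a −log10 q of 10 were dropped from each list, 1 KO region at Irf8 was left, the promoter, covering 840 bp, and again no WT region. Over all consensus regions 17.2% were in the KO list only and 18.1% in the WT list only. At the other 7 IRF genes 7 of 32 regions (21.9%) were in the KO list only and 1 in the WT list only. The peaks are from bulk cells, so a site open in more cells and a site more open in each cell cannot be told apart.

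The Irf8 gene (ENSMUSG00000041515.10, mm10 chromosome 8, 120736358 to 120756694, plus strand) had its strongest KO-only region at the promoter. The region ran from 120735932 to 120736771 with its summit at −10 bp from the start site, a pileup of 20 over a local background of 1.51, a fold enrichment of 8.38 and a −log10 q of 13.8. It stood near the middle of the KO list, at percentile 59.4 by fold enrichment. The region at 7730 bp, in an intron, ran from 120743700 to 120744183 and had a pileup of 11 and a fold enrichment of 5.21. The region at 15938 bp, from 120752121 to 120752670, lay in an exon of a shorter annotated Irf8 transcript, near that transcript's start. Its pileup was 13 and its fold enrichment 6.13. Downstream of the gene, the intergenic region at 60043 bp, from 120796206 to 120796559, had a pileup of 13 and a fold enrichment of 6.22. These 3 stood lower in the KO list than the promoter region, at percentiles 24.1, 36.1 and 36.8, with −log10 q of 5.46, 7.47 and 7.60.

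**Figure D1:**
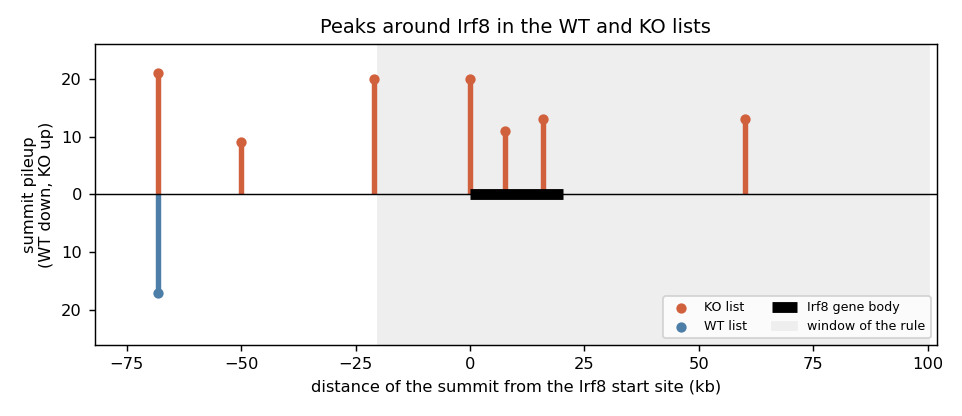
Summit pileups of peaks around Irf8 (WT down, KO up) against distance of the summit from the start site in kb, with the gene body in black and the window of the rule in grey. Inside the window are the 4 KO peaks, with pileups of 20, 11, 13 and 13, and no WT peak, while the promoter of Emc8 and Cox4i1 at the left had a peak in both lists.

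The gap in the WT list reached well past the gene. The nearest WT peak upstream was at −68.0 kb, at the promoter shared by Cox4i1 and Emc8, where the pileup was 17 in WT against 21 in KO, a log2 ratio of 0.39. The nearest WT peak downstream was at 355.6 kb, in an exon of Mthfsd, with a pileup of 8 and no overlapping KO peak. With 80 kb taken on the upstream side as well, 2 more KO-only regions appeared. Of these, the intergenic region at −20.9 kb, just outside the window, was as high as the promoter, with a pileup of 20, and the one at −50.0 kb had a pileup of 9.

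The share of KO regions without a WT peak depended on the pileup and was lower at higher pileups. It counts peaks missed in calling and differences between the genotypes alike, which 1 list each cannot tell apart. Of KO regions with the pileup of the Irf8 promoter, 20, there were 134 of 965 (13.9%, 95% Wilson interval 11.8 to 16.2) without a WT peak. Among promoter regions of coding genes with that pileup there were 22 of 298 (7.4%, 4.9 to 10.9), and over all coding promoter regions 6.83% were in the KO list only. At the pileups of the other 3 Irf8 regions the shares were 44.4% at 11 and 32.6% at 13. A missing WT peak means signal under the calling limit, which need not be 0. Where the local background was at most 1.6, the lowest pileup called in WT was 6 and the 5th percentile 7. Taken alone, each Irf8 region was thus of a pileup at which 13.9% to 44.4% of all KO regions lacked a WT peak. For the promoter region the share among coding promoters alone was 7.4%. These shares took in regions of every local background, while the backgrounds of the 4 Irf8 regions were 1.25 to 1.51.

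The 4 together were less usual. Windows of the same shape were laid around all 21755 coding genes, 20 kb upstream and 80 kb downstream, and those without any WT region and with at least 4 KO regions made up 0.0046% of them, which is 1 gene, Irf8 itself. This criterion was taken from the values of Irf8, so the count describes how rare the pattern was and tests nothing. The 21755 also include windows with too few regions to meet it. With 20 kb on each side, the median window of a coding gene held 2 regions. It rests on weak regions too, since 3 of the 4 had a −log10 q under 10. In the opposite direction, windows with no KO region and at least 4 WT regions made up 0.00919%, or 2 genes. Windows with no WT region and at least 1 KO region made up 1.22%.

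**Figure D2:**
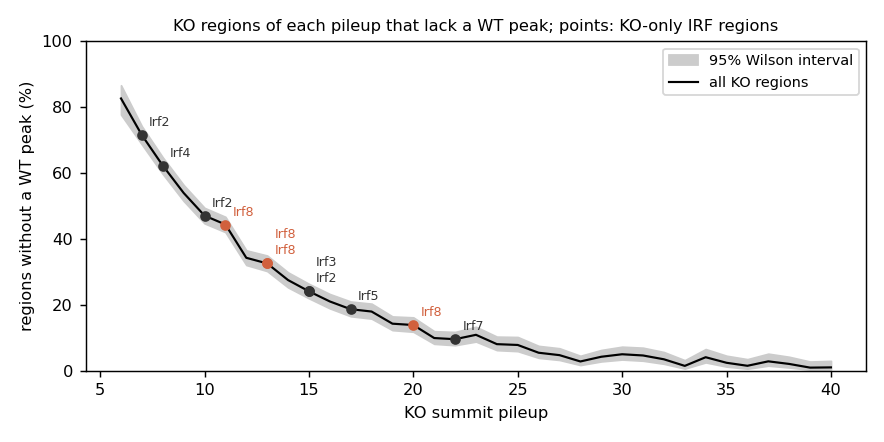
Share of all KO regions without a WT peak (%) against the KO summit pileup, with its 95% Wilson interval in grey, and the 11 KO-only IRF regions placed on the curve at their pileups. The share falls from 71.5% at a pileup of 7 to 9.6% at 22, and the Irf8 promoter lies at 13.9%.

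Of 9 own-promoter regions of the other members, 8 were in both lists and 1, at Irf5, was in the KO list only (11.1%, beside the 6.83% of all coding promoter regions). Ordered by WT pileup, with exact Poisson 95% intervals that cover counting error only, Irf2 had 50 (37.1 to 65.9), Irf3 49 (36.3 to 64.8), Irf1 38 (26.9 to 52.2) and Irf9 37 (26.1 to 51.0). Irf4 followed with 34 (23.5 to 47.5), Irf5 with 31 (21.1 to 44.0) and Irf7 with 27 (17.8 to 39.3), and Irf8 had no WT peak. The WT value of Irf7 is from a summit inside the gene, at 1479 bp, and its WT peak at the start site had 23, whereas its KO summit was at the start. The interval of each gene overlapped that of its neighbour in this order. In the KO list the order was Irf2 with 58, Irf9 with 41, Irf3 with 35, Irf4 with 30, Irf1 with 28, Irf5 with 24, Irf8 with 20 and Irf7 with 19. The KO pileup of Irf8 (12.2 to 30.9) was thus within the counting error of that of Irf7 (11.4 to 29.7) and Irf5 (15.4 to 35.7).

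Shared regions with 1 peak in each list were compared by the log2 KO to WT ratio of the pileup over the genome background, whose median over all 28909 such regions was 0.17. A region was called when it lay at least 1.5-fold above or below that median. Of all these regions 7.64% were called higher and 7.91% lower in KO. The 7 ratios at own promoters of the other members had a median of −0.09, ranged from −0.40 to 0.30 and gave no call. Over all coding promoter regions the median was 0.09, with 3.56% called higher and 7.78% lower. Elsewhere in the windows 4 of 16 ratios were called higher and none lower. Of these, 7 were at promoters of neighbouring coding genes, with a median of 0.38, and 2 of them (Emc9 and Rec8) were called higher. The other 9 were at no coding promoter, with a median of 0.23 and a range from −0.24 to 0.99, and 2 of them, at Irf1 and Irf2, were called higher. Over all regions away from coding promoters the median was 0.22, with 10.7% called higher and 8.01% lower. By a stricter call, the exact binomial 95% interval wholly above or below the median, 1 of the 23 shared IRF regions was above and none below, against 1.91% and 1.54% of all.

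**Figure D3:**
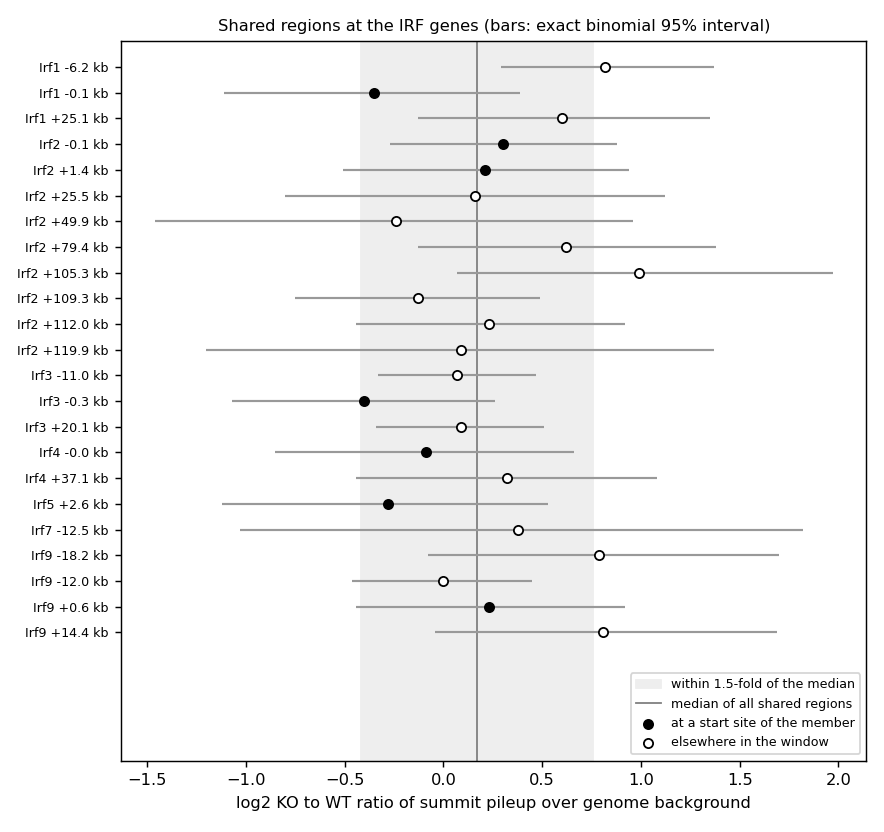
Log2 KO to WT ratio of summit pileup over genome background in the 23 shared regions with 1 peak in each list, by gene and distance from its start site, with exact binomial 95% intervals. The grey line is the median of all shared regions, 0.17, and the band 1.5-fold on either side; 4 open points lie above the band, and only the interval of Irf1 at −6177 bp clears the line.

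Irf1 (ENSMUSG00000018899.16, chromosome 11, 53770014 to 53778374, plus strand), an activator of interferon-induced genes, had the one region that passed the stricter call. It lay at −6177 bp, from 53763060 to 53764298, near the start of Mir7671, and had a pileup of 48 in WT against 80 in KO. The log2 ratio was 0.82 (0.29 to 1.37). By the authors' fold enrichment, 9.39 in WT against 15.8 in KO, the region was 0.49 above the median on the log2 scale, short of the 0.58 that a call needs. The promoter region of Irf1 had the other sign, with a pileup of 38 in WT against 28 in KO and a log2 ratio of −0.35 (−1.11 to 0.39), whose interval held the median. All 3 regions of Irf1 were in both lists.

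Irf2 (ENSMUSG00000031627.9, chromosome 8, 46739732 to 46847458, plus strand), which competes with Irf1 for the same sites and mostly represses, had the most regions, 12, of which 9 were in both lists. Its promoter had a pileup of 50 in WT against 58 in KO, a log2 ratio of 0.30, and the region at 1429 bp had 33 and 36, a log2 ratio of 0.21. The region farthest from the median was in an intron near the 3′ end, at 105326 bp (46844775 to 46845278), with 16 in WT against 30 in KO and a log2 ratio of 0.99 (0.07 to 1.97). It was called higher, but its interval held the median. The 3 KO-only regions, all in introns, were at 16530 bp, 38574 bp and 60193 bp with pileups of 7, 15 and 10. At those pileups 71.5%, 24.1% and 47.1% of all KO regions had no WT peak.

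Irf3 (ENSMUSG00000003184.15, chromosome 7, 44997648 to 45002848, plus strand), the constitutively expressed factor that starts interferon beta transcription, shares its promoter with Bcl2l12. There the pileup was 49 in WT against 35 in KO, and the log2 ratio of −0.40 (−1.07 to 0.26) was the lowest among the shared IRF regions. The KO-only region at 7110 bp, in an intron of Scaf1, had a pileup of 15. The neighbouring promoters of Prmt1 and Rras, with pileups of 108 and 94 in WT and 107 and 94 in KO, had log2 ratios of 0.07 and 0.09.

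Irf7 (ENSMUSG00000025498.15, chromosome 7, 141262706 to 141266481, minus strand), which amplifies type I interferon, had 2 WT peaks and 1 KO peak over its start and the first part of the gene. The WT summits had pileups of 23 at 116 bp and 27 at 1479 bp, and the KO summit had 19 at the start site. A ratio was not formed, since 2 peaks faced 1. Upstream at −2485 bp (141268588 to 141269142) was the KO-only region of the family with the highest pileup, 22. Its local background was 2.77 and its fold enrichment 6.10, at percentile 33.9 of the KO list. At that pileup, whatever the local background, 80 of 834 KO regions (9.6%) had no WT peak. The shared region at −12451 bp, at Sct, had 9 in WT against 11 in KO, a log2 ratio of 0.38.

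Irf5 (ENSMUSG00000029771.12, chromosome 6, 29526625 to 29541871, plus strand), a factor of the Toll-like receptor response and of inflammatory cytokine genes, was the only member with a WT-only region. That region was in an untranslated exon at 10427 bp (29536884 to 29537205), with a pileup of 11. A KO-only region within 1000 bp of a start of Irf5, at 930 bp (29527471 to 29527889), had a pileup of 17. At that pileup, whatever the local background, 18.7% of KO regions had no WT peak. Its local background was 3.11 and its fold enrichment 4.38, at percentile 12.4 of the KO list. The shared region at 2595 bp, at an alternative start, had 31 in WT against 24 in KO, a log2 ratio of −0.28 (−1.12 to 0.53). Its summit window held an EICE match.

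Irf4 (ENSMUSG00000021356.10, chromosome 13, 30749226 to 30766976, plus strand), the closest relative of Irf8 in the family and a factor of lymphocytes, differed from Irf8 in having its promoter in both lists. The pileup was 34 in WT against 30 in KO and the log2 ratio −0.09 (−0.85 to 0.66). The intergenic region at 37070 bp had 29 and 34. The KO-only region at −10704 bp, whose sequence with 2 ISRE matches is printed above, was weak, with a pileup of 8 and a fold enrichment of 4.13, and at that pileup 62.3% of KO regions had no WT peak.

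Irf9 (ENSMUSG00000002325.15, chromosome 14, 55603571 to 55610030, plus strand), the DNA-binding part of the complex with Stat2, had all 4 regions in both lists. Its promoter region at 607 bp had 37 in WT against 41 in KO, a log2 ratio of 0.23 (−0.44 to 0.92). The others were at promoters of neighbouring genes. Called higher were those of Rec8, a meiotic cohesin, with 20 in WT against 33 in KO (log2 ratio 0.81, −0.04 to 1.69) and of Emc9, with 19 and 31 (0.79, −0.08 to 1.70). By fold enrichment Rec8 kept its call, at 0.62 above the median, and Emc9 lost it, at 0.48. The promoter of Psme2 and Rnf31 had 86 and 81, a log2 ratio of 0.00.

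**Figure D4:**
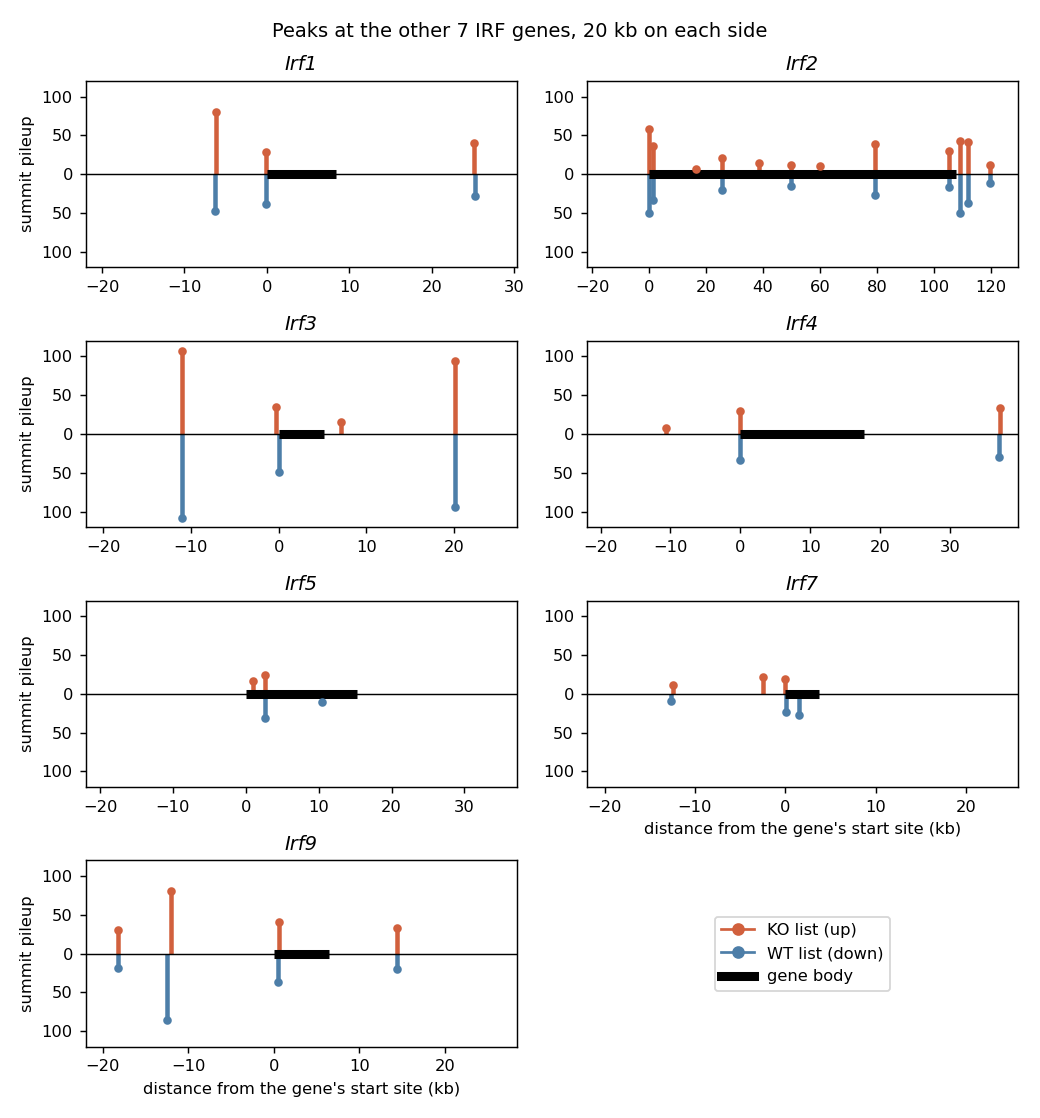
Summit pileups of the WT peaks (down) and KO peaks (up) at the other 7 IRF genes against distance from the start site of each gene in kb, with the gene body in black. Each gene had a WT and a KO peak at a start site of its own; the highest pileups, 108 in WT against 107 in KO, were at the Prmt1 promoter in the window of Irf3.

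By bases covered, 7 of the 8 genes had more in the KO list, and with all peaks the largest difference was at Irf8. The KO list covered 2228 bp more at Irf8, 1532 bp more at Irf2, 1133 bp more at Irf9 and 1028 bp more at Irf1. At Irf7, Irf3 and Irf5 it covered 451, 339 and 315 bp more, and at Irf4 the difference KO minus WT was −592 bp. Over all 21755 coding genes with 20 kb on each side, 39.8% had more covered bases in KO and 41.29% fewer, and the quartiles of the difference were −262 and 234 bp. This order did not hold when peaks under a −log10 q of 10 were dropped. The difference was then 840 bp at Irf8, below 1816 bp at Irf2, 1133 bp at Irf9 and 1028 bp at Irf1, and it was −235 bp at Irf3 and −996 bp at Irf4. With 1 list each, such a difference has no replicate check. The window of Irf8 reached farther downstream than those of the other genes. With all peaks and 20 kb on each side for every gene, the difference at Irf8 was 1874 bp, still the largest of the 8.

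**Figure D5:**
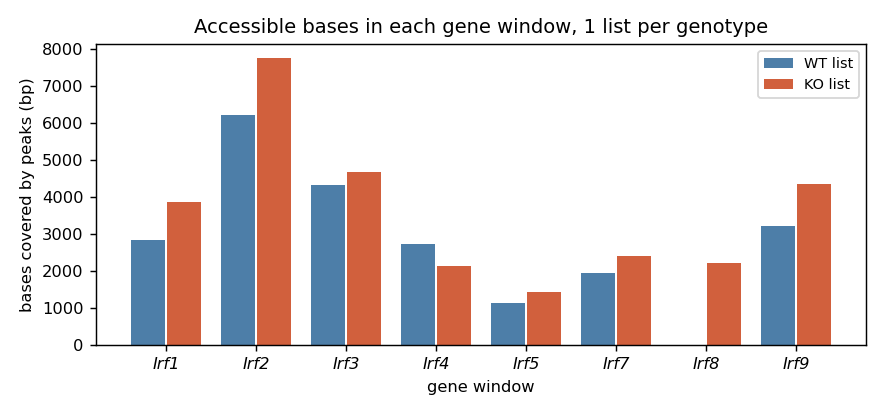
Bases covered by peaks (bp) in each IRF gene window, WT list and KO list side by side, 1 list per genotype and so without error bars. At Irf8 the WT bar is 0 and the KO bar 2228, and Irf4 is the gene whose WT bar (2727) exceeds its KO bar (2135).

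The genes that act before the IRF proteins were looked up at their promoters. Of 16 genes for receptors, kinases, adaptors and the factor Stat2, 14 had a promoter region in both lists, and Tlr7 and Tlr9, receptors for nucleic acids in endosomes, had it in neither. This list was written with earlier results of these data known, so its counts are a description and test nothing. The 14 ratios had a median of 0.41 and ranged from −0.17 to 1.14. By the pileup ratio, the only scale used here, 4 were called higher and none lower, beside 3.56% and 7.78% of all coding promoter regions. The highest was Tyk2, a kinase bound to the type I interferon receptor, with 42 in WT against 87 in KO (log2 ratio 1.14, 0.59 to 1.70). Mavs, the mitochondrial adaptor of RNA sensing, had 39 and 67 (0.87, 0.28 to 1.47). For these 2 the interval lay above the median of all shared regions. Ifnar2, a chain of the type I interferon receptor, had 16 and 29 (0.94, 0.02 to 1.92), and Ikbke, a kinase that activates Irf3 and Irf7, had 13 and 23 (0.91, −0.13 to 2.01), and both intervals held that median. The other receptor chain, Ifnar1, had 65 and 58, and Stat2 had 47 and 48.

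Of 8 genes for DNA-binding partners of Irf4 and Irf8, 6 had a promoter region in both lists. Their log2 ratios had a median of 0.40, a range from 0.00 to 0.53 and no call. All coding promoter regions had a median of 0.09, with 3.56% called higher and 7.78% lower, so the lack of a call among 6 says little. Spi1, the myeloid and B cell ETS factor that pairs with Irf8, had 38 in WT against 51 in KO, a log2 ratio of 0.51 (−0.12 to 1.16). Batf3, which acts with Irf8 in dendritic cells, had 11 and 15, a log2 ratio of 0.53 (−0.69 to 1.80). Spib and Ikzf3 had a promoter region in neither list.

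Motifs were counted on both strands in 200-base windows around the summits of the 36 regions and set beside all 45475. ISRE matches were in 3 IRF regions (8.3%, against 8.1% of all), EICE in 4 (11.1% against 6.7%) and GAS in 3 (8.3% against 5.6%). The ETS form named PU1 (GAGGAAGT) was in 4 (11.1% against 6.7%) and CEBP (TTGCNNAA) in 6 (16.7% against 7.8%). RUNX was in 4 (11.1% against 20.4%), GATA in 4 (11.1% against 8.8%), E-boxes (CAGNTG) in 12 (33.3% against 39.8%), AP1 (TGANTCA) in 1 (2.8% against 8.1%) and the longer ETS form (CCGGAAGT) in none (2.0% of all). ISRE and EICE matches can overlap, as at Irf2. With so few regions, 1 region more or less moves each share by several points. Of the 4 Irf8 windows, 1 held an ISRE match and none an EICE or GAS match, because the GAS pair of the promoter lies upstream of the summit window. In the RefSeq promoter stretches, 3 of 11 entries for the members held a GAS match (Irf1, Irf2 and Irf8), against 8.3% of all 32851, and 1, that of Irf2, held ISRE and EICE matches, against 8.6% and 8.2%. The stretch of the Irf8 start site lay inside the KO-only promoter region, so the bases printed for it were among those called accessible in the KO list and not in the WT list.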

How the data were processed

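ATAC-seq peak lists of WT and KO HSCs were analysed, 1 list per genotype for 2 samples each. Whether replicates were pooled for a list is not given in the sources used here. The authors used Trim Galore for trimming, Bowtie2 for alignment to mm10, Picard for the removal of duplicate and mitochondrial reads and MACS2, without a fragment model, for peak calling; versions are not given in the sources used here. The deposited lists hold the authors' fold enrichment at the summit, −log10 p and −log10 q, a display score (not used) and the summit position. The separate deposited summit lists held the same −log10 q and served as a check only.

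The summit pileup and local background of each peak were solved from fold enrichment and p under the Poisson model of the caller, and in each list 99.99% of peaks had a whole-number pileup whose −log10 p was within 0.001 of the deposited one. Ratios used pileup over the genome background, the median of the 1000 lowest local backgrounds, 1.19 in WT and 1.13 in KO. Intervals are exact binomial, exact Poisson or Wilson at 95% and cover counting error only. Reads per sample are unknown, so the precision rests on these pileups. Regions merged peaks that overlapped by at least 1 bp on the autosomes and chromosome X. Genes were from GENCODE M21, promoters were summits within 1000 bp of a start site, and Gm20388, an annotated locus that spans many genes around Irf8, was left out when regions were placed. Promoter stretches and bases were from RefSeq GRCm38.p6, with 11 entries for the 8 genes. Scripts were tested on simulated data (Python 3.11.15, NumPy 2.4.6, SciPy 1.17.1, pandas 2.3.3, pysam 0.24.0).

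The members and gene lists were chosen with earlier results of these data known, and some genes of the lists are not reported here. They were left out whatever their values, and each printed count is over the remaining genes of its list. Regions described singly were all those of Irf8 and, for the other genes, own promoters, regions in 1 list only and the shared region farthest from the median; further regions named were chosen after their values were seen. Alternatives covered the threshold on q, the overlap, the windows, the scale of the ratio and the motif window.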

Additional observations from a re-analysis of the deposited data

How the results depend on the processing

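No paired analysis was possible because only 1 list stood for both replicates of a genotype, and runs without single replicates were not possible either. Of 111 values recomputed, 22 moved and 1 changed sign, and the other 88 stayed within 1.5 times the reported count or length, or within the counting interval of a share or median, and the causes were not tested beyond what each setting removes. With a −log10 q of at least 10, KO-only regions numbered 1 at Irf8 (the promoter), 4 at the other 7 genes and 5 in all, and the difference in covered bases was 840 bp at Irf8, 60 bp at Irf7, −996 bp at Irf4 and −235 bp at Irf3, where it had been positive. With a limit of 5, it was −996 bp at Irf4 and 1075 bp at Irf7. With 10 kb flanks it was 79 bp at Irf1, 826 bp at Irf7 and 596 bp at Irf9. With 80 kb on both sides of Irf8, 1 region with a WT peak entered, the Emc8 promoter. With summits required within 100 bp, 29.8% of regions were in both lists, 21 were KO-only, 12 WT-only and 17 KO-only at the other 7 genes. When at least 50% of each peak had to overlap, 4 were WT-only. With the authors' fold enrichment in place of the pileup ratio, 2 shared regions were called higher, Irf2 at 105326 bp and Rec8 near Irf9. Windows of 400 bp gave 8 regions with EICE (22.2% against 12.4% of all regions). They gave 5 with GAS (13.9% against 11.4%) and 6 with ISRE (16.7% against 14.6%). Windows of 100 bp gave 1 with GAS (2.8% against 2.6%). For CEBP, which was not among the 111 values, windows of 400 bp gave 7 (19.4% against 15.0%). Windows of 100 bp gave 3 with CEBP (8.3% against 3.9%). The lists hold no signal under the calling limit, so no fold could be given for Irf8, and reads per sample, which would set the depth, are unknown.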
